A study of Mus musculus with 4 samples.

Results

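The second largest CD8 clonotype of the wild-type (WT) library comprised 318 cells that carried the same T cell receptor, an alpha chain called TRAV14-2 paired with a beta chain called TRBV10. Its cells were chosen from receptor contigs and CD8 transcripts. In each cell the alpha and the beta contig with the most unique molecular identifiers (UMIs, counted RNA molecules) were taken, a clonotype was the V call and the junction of both chains, and cells were required to hold at least 1 UMI of Cd8a or Cd8b1 and 0 UMIs of Cd4. These values therefore describe the choice and are not results. The 318 cells were 7.65% (exact 95% interval 6.86 to 8.50) of the 4159 WT CD8 cells with a paired receptor, and the series held 20170 cells after quality filters, 10224 of them WT. The largest clonotype held 1034 cells (24.9%), and the third held 79. The reference was the 836 WT CD8 cells whose clonotype was seen in 1 cell only, called single-cell clonotypes here.

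The samples were T cells that had been sorted out of tumors of B16, a melanoma line grown in mice, taken from animals whose Vsir gene, which encodes the checkpoint protein VISTA, is flanked by loxP sites (Vsir fl/fl). WT littermates carried no Cre, whereas VISTA-KO mice carried CD4-Cre, a recombinase driven by the Cd4 promoter, which all developing alpha-beta T cells switch on in the thymus, so that CD8 cells lose Vsir as well. Mice of both genotypes, aged 6 to 8 weeks in the tumor experiments, received a peptide vaccine (TRP2 peptide with CpG and R848) on day 3 after tumor inoculation and antibody against CTLA-4 on days 4 and 8, so that the WT cells are treated cells. Tumor-infiltrating cells were isolated on day 18 after treatment, and the sources give 5 to 6 mice or 6 to 8 tumors pooled per genotype into 1 gene expression library and 1 receptor library. The WT library held 72098984 UMIs in 10337 barcodes (median 4684 per barcode) and the VISTA-KO library 59916814 UMIs in 10085 barcodes (median 4623). Because mice were pooled, the clonotype and the mouse or mice it came from cannot be told apart. With 1 library per genotype, cells are not replicates and no test was made. All intervals are 95% intervals, which cover counting error only. Those of CPM values and shares are exact, whereas those of log2 ratios are approximate and combine the exact intervals of both groups.

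A T cell receptor is assembled in each developing T cell by joining V, D and J segments, with bases added or lost at the joints, and all daughters of that cell inherit the same junctions. A junction found in many cells thus marks the progeny of few founders, and an expanded clonotype is commonly read as a T cell that met its antigen. CD8 T cells that keep meeting antigen in tumors are known to express inhibitory receptors such as PD-1, LAG-3 and TIM-3 together with the transcription factor TOX, and to lose TCF-1 (Tcf7), which marks naive, memory and progenitor cells.

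The junction sequences below define the clonotype and are shown with those of the largest clonotype and of the other expanded TRBV10 clonotype for comparison. Sequences run 5′ to 3′ from the codon of the conserved cysteine to that of the conserved phenylalanine, and the capitals in the beta chains mark a stretch of 8 bases that recurred in several expanded clonotypes.
second largest clonotype, alpha (TRAV14-2, TRAJ26): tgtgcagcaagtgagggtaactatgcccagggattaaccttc
second largest clonotype, beta (TRBV10, TRBD2, TRBJ2-4): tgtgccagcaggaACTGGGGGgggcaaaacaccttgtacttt
largest clonotype, alpha (TRAV10N, TRAJ9): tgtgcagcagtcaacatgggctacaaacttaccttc
largest clonotype, beta (TRBV12-2, TRBD1, TRBJ2-7): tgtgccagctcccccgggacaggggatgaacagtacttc
seventh clonotype, 46 cells, beta (TRBV10, TRBJ2-4): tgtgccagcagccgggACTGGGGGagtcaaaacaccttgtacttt
Both junctions of the clonotype were 42 bases, or 14 codons, long. In the alpha chain the V call ended at base 13 and the J call began at base 14, with 0 bases between them, whereas in the beta chain the V call ended at base 17 and the J call began at base 22, with 4 bases between them. The capital stretch began at base 14 of the beta junction.

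Every member had the same receptor and no other assembled chain. In all WT cells kept, 323 cells carried both junctions, and all 323 held 1 alpha and 1 beta contig. The other 5 lay outside the CD8 gate, with 2 to 8 Cd4 UMIs beside 12 to 35 Cd8a UMIs and depths of 8947 to 28459 UMIs. Another 9 cells carried the alpha chain without a beta contig, and 0 cells carried either chain with another partner. In the largest clonotype 1063 cells held both chains, 27 the beta chain alone and 11 the alpha chain alone. Alpha contigs of the second largest clonotype had a median of 13 UMIs, against 6 in single-cell clonotypes and 7 in the largest clonotype, and ranked 5 of the 23 clonotypes with at least 20 cells. Its beta contigs had a median of 13 UMIs, against 11 and 14.

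The receptor was not detected in VISTA-KO. Of 3459 VISTA-KO CD8 cells with a paired receptor 0 carried it, which allows a share of up to 0.0867% (a limit of 3 counts, not an exact interval), and neither junction occurred in any VISTA-KO contig. The libraries shared 145 barcodes, of which 4 belonged to the clonotype, and 0 of the shared barcodes had the same clonotype in both. Junctions were compared base by base only between chains with the same V call, J call and length. Among these, the nearest beta junction differed at 7 bases in WT (2 chains) and at 6 bases in VISTA-KO (4 chains), and there was no such alpha chain in either library.

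The gene expression library read the same receptor under another beta V name. The alpha V gene, Trav14-2 (chromosome 14, 53640775 to 53641225, RefSeq on GRCm38.p6), was at 1591 CPM (UMIs of the gene scaled to a common total of 1e6 UMIs) in the clonotype, with a UMI in 316 of 318 cells, and at 22.2 CPM in single-cell clonotypes. Trbv10 (chromosome 6, 41091935 to 41092228) had 0 UMIs in the clonotype. Trbv4 (chromosome 6, 41059443 to 41059886), for which RefSeq gives Tcrb-V10 as a synonym, was at 293 CPM (interval 271 to 317) with a UMI in 253 cells. The other 177 WT cells with a TRBV10 contig likewise held Trbv4 RNA, at 396 CPM (356 to 440), against 1.42 CPM in the 6824 cells of V calls other than TRBV10 and TRBV29, and 0 contigs of either library were called TRBV4. The contig name TRBV10 thus went with RNA of the gene that the expression table names Trbv4. The beta constant region was Trbc2 (chromosome 6, 41546730 to 41548181) in 317 of 318 contigs. In the gene expression library Trbc2 was at 216 CPM and Trbc1 at 0.470 CPM, from 1 UMI, whereas single-cell clonotypes held 200 CPM of Trbc2 and 89.9 CPM of Trbc1.

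Members also carried RNA of V genes that their contigs did not name. Trbv29 (chromosome 6, 41271403 to 41271881) had 359 UMIs, 169 CPM (152 to 187), and was found in 180 of 318 cells (56.6%), with at most 11 UMIs in 1 cell. Its level lay below the 1726 CPM of the 201 WT cells with a TRBV29 contig, but 155 of the 180 cells also held Trbv4 RNA. Of the 21 other clonotypes with at least 20 cells and another beta V call, 19 had 0 cells with a Trbv29 UMI and the highest share was 2.17%. Trav13-1 gave the same picture for the alpha locus, at 204 CPM (185 to 224) with a UMI in 220 cells (69.2%). Among the 22 other clonotypes the highest share of cells with Trav13-1 was 11.5%, and 17 had none. In the clonotype 123 cells held UMIs of both Trbv29 and Trav13-1, and 277 held at least 1 of them. Developing T cells can rearrange both copies of a receptor locus. Whether a second rearrangement without a productive contig underlies this RNA was not tested, since every contig used here is marked productive. These V genes were picked after their values were seen.

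The gene with the highest ratio to single-cell clonotypes, 5830405F06Rik (ENSMUSG00000103586), followed the beta V call. It was at 161 CPM (144 to 179) in the clonotype, with 342 UMIs in 169 cells, at 6.48 CPM in single-cell clonotypes and at 0 UMIs in the largest and the third clonotype. The log2 ratio of CPM plus 5, the measure used throughout, was 3.85 (3.51 to 4.17). Across all WT cells with a beta contig it was at 126 CPM in TRBV10 cells (202 of 500 cells with a UMI), at 47.4 CPM (34.1 to 64.0) in TRBV10 cells outside the clonotype, at 41.6 CPM in TRBV5 cells (96 of 579), and at or below 6.05 CPM in each of 17 other V calls. VISTA-KO cells showed the same order, with 52.9 CPM in 226 TRBV10 cells, 37.9 CPM in TRBV5 cells and at most 3.17 CPM in 18 other V calls. Trbv5 is the V segment that follows Trbv4 on chromosome 6 (41062359 to 41062803). TRBV5 cells held Trbv5 RNA at 124 CPM, against 0.788 CPM in other V calls, so that the contig name TRBV5 went with the gene of that name. In both libraries 5830405F06Rik was thus highest in cells of these 2 V calls, and within TRBV10 cells its level was higher in the clonotype than outside it. No position is given because the gene is not in the RefSeq table used here.

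**Figure D1:**
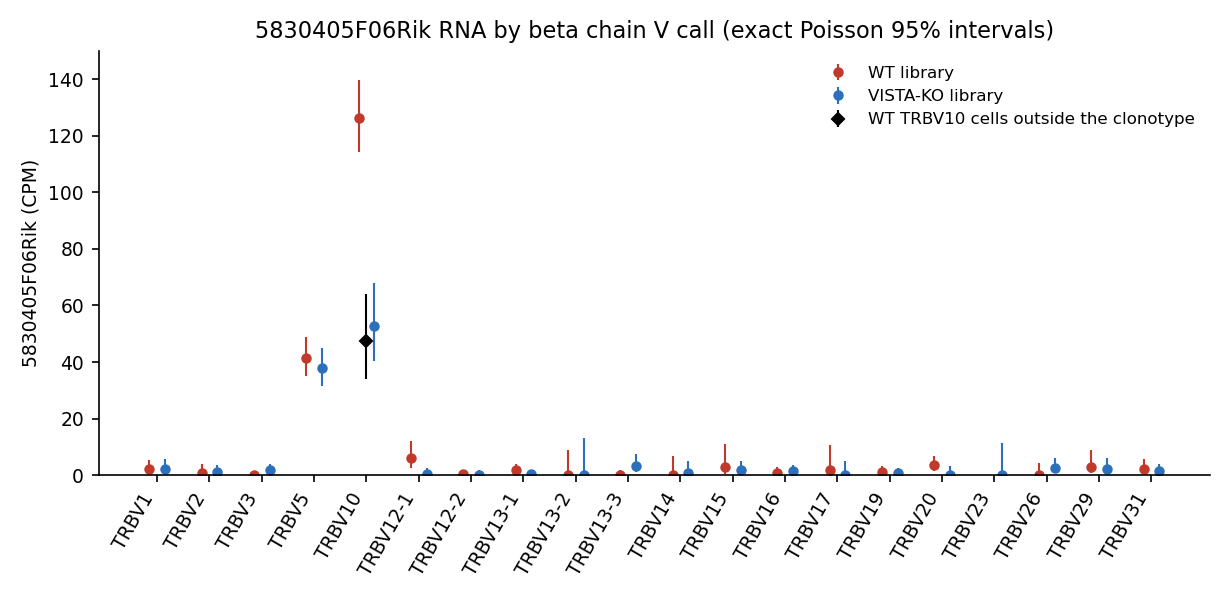
5830405F06Rik RNA (CPM of summed UMIs, y axis) in cells grouped by beta chain V call (x axis), for the WT and the VISTA-KO library, with exact Poisson 95% intervals. TRBV10 cells (126 CPM in WT, 52.9 CPM in VISTA-KO) and TRBV5 cells (41.6 and 37.9 CPM) stand above all other V calls, which reach at most 6.05 CPM.

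Cd8b1 was at 1793 CPM and Cd8a at 1575 CPM, with a Cd8a UMI in 314 cells, but these genes chose the members and are no check of the label. Of markers that the choice did not use, Cd3e was at 2147 CPM in 314 cells, and Cd3g, a subunit of the CD3 complex, was at 2578 CPM in 317 cells. Cd3g was also the highest of all 23 clonotypes with at least 20 cells (others 1434 to 2418 CPM), and its log2 ratio to single-cell clonotypes was 1.13. The regulatory T cell factor Foxp3 was found in 2 cells of the clonotype and in 69 of 836 single-cell clonotypes (8.25%), so that the reference holds some regulatory-type cells. The summed level of 8 gamma-delta and type 17 genes was 13.2 CPM with 6 of them at 0, and that of 8 melanoma genes was 3.29 CPM with Tyr, Pmel, Sox10 and Gpnmb at 0. The summed level of 12 myeloid genes was 589 CPM, the most abundant being Cst3, and of 8 B cell genes 117 CPM, nearly all Ighm, with Ms4a1, Cd79a and Pax5 at 0. Without 5 cells described further on the summed myeloid level was 253 CPM, of which Cst3 made up 162 CPM, and the part of free RNA in these levels was not tested.

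Median depth was 5250.5 UMIs per cell in the clonotype (range 934 to 45349), 4794 in single-cell clonotypes, 4665.5 in the largest clonotype and 11265 in the third. Summed over cells this gave 2128803 UMIs for the clonotype and 4782235 for the single-cell clonotypes. Members had a median of 2051 detected genes and 0.745% mitochondrial UMIs, against 1840.5 genes and 1.11% in the reference.

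Against single-cell clonotypes, the clonotype was high for inhibitory receptors, TOX factors, the chemokines Ccl3 and Ccl4 and mitotic genes, and low for naive and memory genes, NK-type receptors and granzyme A. A gene was called where the log2 ratio reached 1 in either direction with at least 20 CPM in 1 of the groups. Of 6169 genes at that level 144 (2.33%) were called higher and 165 (2.67%) lower, and the median log2 ratio of all was 0.05. When receptor, ribosomal protein and mitochondrial genes were left out of the totals, 143 genes were higher and 248 lower, so that the higher genes made up 36.6% of calls instead of 46.6%. These calls depended on the reference. Against all other WT CD8 cells 44 genes were higher and 60 lower, and against the 231 clonotypes of 2 to 19 cells (1107 cells) 36 were higher and 37 lower.

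**Figure D2:**
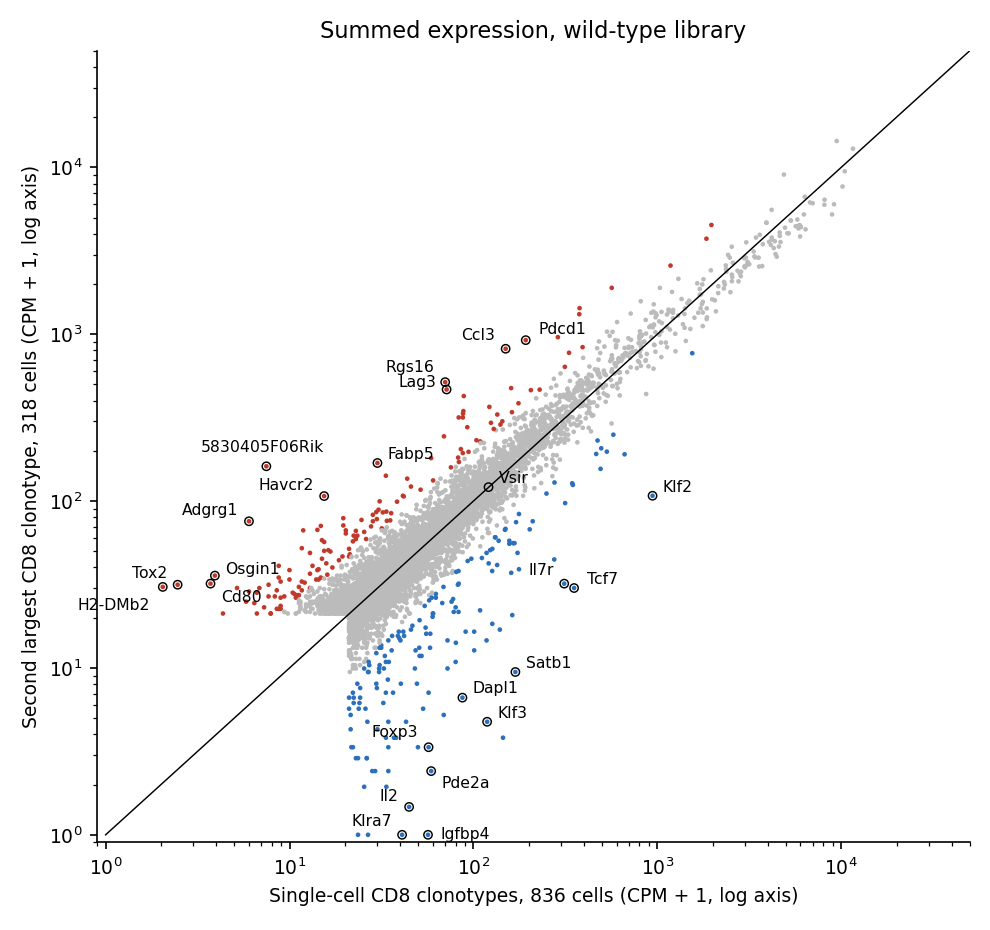
Summed expression of 6169 genes in the second largest clonotype (318 cells, y axis) against single-cell clonotypes (836 cells, x axis), both as CPM plus 1 on log axes, with the line of equal values. Red and blue points are the 144 genes called higher and the 165 called lower, circles mark the named genes, and Vsir lies on the line at 120 CPM in both groups.

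Inhibitory receptors stood out in number. Of 13 measured genes of this list 7 were higher (Lag3, Havcr2, Pdcd1, Entpd1, Tigit, Cd38 and Cd244a), and 1, Nt5e, was lower (2.35 against 20.7 CPM). The median log2 ratio was 1.03. Pdcd1, which encodes PD-1, was at 921 CPM (880 to 962) in the clonotype, 192 CPM in single-cell clonotypes, 383 CPM in the largest and 746 CPM in the third, and the log2 ratio to single-cell clonotypes was 2.24 (2.12 to 2.35). Lag3, an inhibitory receptor that binds MHC class II, was at 466 CPM, against 70.5, 42.2 and 494 CPM, with a log2 ratio of 2.64 (2.47 to 2.81). Havcr2, which encodes TIM-3, was at 106 CPM, against 14.4, 8.61 and 118 CPM, with a log2 ratio of 2.52 (2.20 to 2.83). For all 3 genes the clonotype and the third clonotype lay together above single-cell clonotypes and the largest clonotype, whose intervals they did not overlap. Among the other 22 clonotypes Pdcd1 ran from 11.6 to 1263 CPM (median 696), so that the clonotype, ranked 4, lay within the range of its expanded neighbours. Lag3 also ranked 4 and Havcr2 ranked 8.

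Against clonotypes of 2 to 19 cells the log2 ratios were 0.69 for Pdcd1, 0.83 for Lag3 and 0.57 for Havcr2, below the threshold. Tigit was at 474 CPM against 159 in single-cell clonotypes (log2 ratio 1.54), and Ctla4, the target of the antibody given to the mice, at 265 against 132 CPM (log2 ratio 0.98, below the threshold). Without the Foxp3 cells of the reference, an alternative added after seeing the data, the Ctla4 ratio was 1.67, and without reference cells holding naive T cell RNA it was 0.51. Vsir itself was at 120 CPM in both groups, with a log2 ratio of 0.01 (-0.20 to 0.21), at 155 CPM in the largest clonotype, and had a UMI in 170 members. No difference in Vsir was detectable at this depth between the clonotype and its reference.

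**Figure D3:**
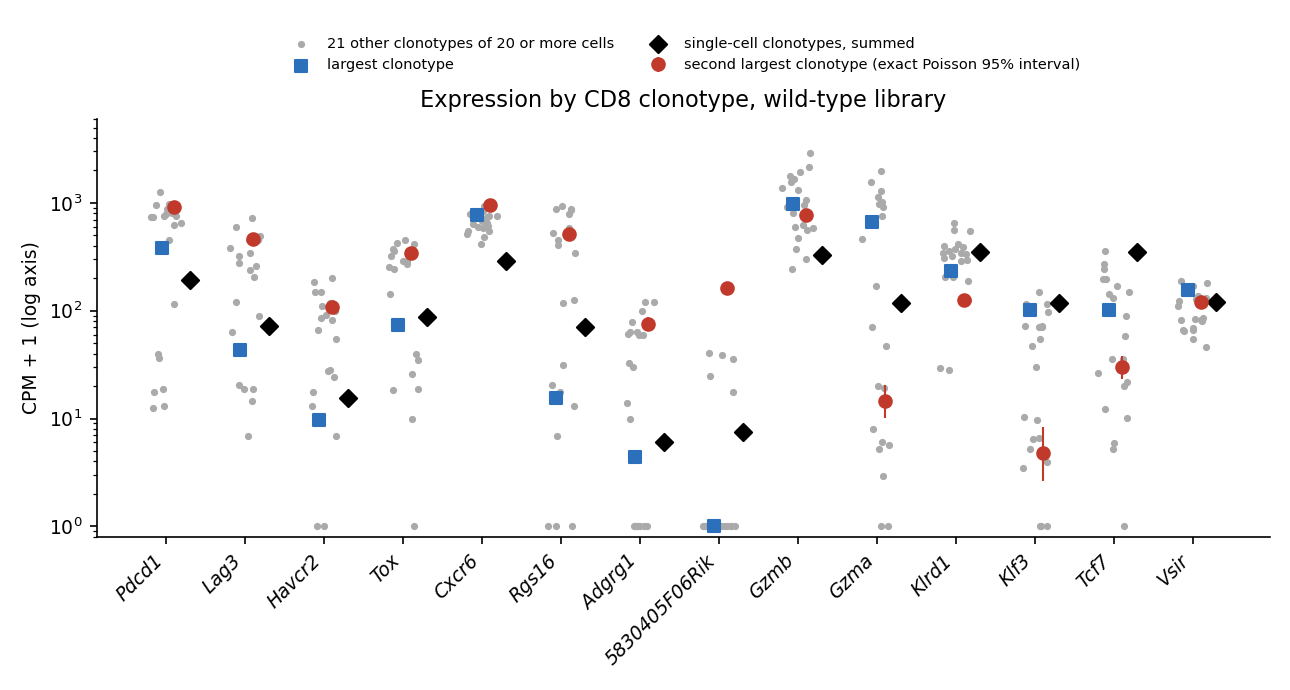
Expression of 14 genes (CPM plus 1, log axis) in the second largest clonotype (red, exact Poisson 95% interval), the largest clonotype (blue), 21 other WT CD8 clonotypes of at least 20 cells (grey) and the summed single-cell clonotypes (black). Pdcd1, Lag3, Havcr2 and Tox lie inside the range of the other clonotypes, 5830405F06Rik lies above all of them, Cxcr6 ranks 1 with the next clonotype inside its interval, and Klrd1 ranks 21 of 23.

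Transcription factors of T cell fate moved in both directions. Of 17 measured factors 6 were higher (Tox2, Tox, Nr4a2, Prdm1, Ikzf3 and Nfatc1) and 2 lower (Ikzf2 and Maf). Tox, a DNA-binding factor of the exhaustion program, was at 345 CPM (321 to 371) in the clonotype, 87.2 in single-cell clonotypes, 73.4 in the largest and 455 in the third, with a log2 ratio of 1.93. Tox2, its paralog, was at 30.5 against 1.46 CPM (log2 ratio 2.46) and had a UMI in 49 members and 5 single cells. Against clonotypes of 2 to 19 cells the log2 ratio of Tox2 was 0.97, below the threshold. Nr4a2, an orphan nuclear receptor, was at 180 against 57.9 CPM, and Prdm1, which encodes Blimp-1, at 61.1 against 22.4 CPM. Eomes, Tbx21, Runx3 and Id2 had log2 ratios between -0.01 and 0.40. Zeb2, a factor of short-lived effectors, was at 9.39 CPM, ranked 21 of 23 clonotypes, and was at 61.4 CPM in the largest clonotype.

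Naive and memory genes were low, with 13 of 18 called lower, 0 higher and a median log2 ratio of -2.21. Tcf7 was at 29.1 CPM (22.3 to 37.3) against 352 CPM (335 to 369), a log2 ratio of -3.39, with a UMI in 31 of 318 members and 580 of 836 single cells. Klf3, a Krüppel-like repressor, was at 3.76 against 118 CPM (-3.81), and Satb1, a chromatin organizer, at 8.46 against 168 CPM (-3.69). The receptor for IL-7, Il7r, was at 31.0 against 311 CPM (-3.13), and Klf2, which drives the exit receptor S1pr1, at 107 against 941 CPM (-3.08). The intervals of the groups did not overlap for any of these 5 genes. Cd27, Cd28 and Ltb had log2 ratios of 0.47, 0.24 and 0.05, so that not all genes of the list moved.

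The largest clonotype differed in this group as well, since Klf3 was at 101 CPM there and Tcf7 at 100 CPM, whereas Il7r (30.02 CPM) lay near the level of the second. Further genes among the 12 lowest were Igfbp4 and Klra7, each with 0 UMIs in the clonotype and at least 39.5-fold and 28.3-fold higher in single-cell clonotypes (against a floor of 3 UMIs over the clonotype), Il2 (0.470 against 43.7 CPM), Pde2a (1.41 against 57.9 CPM), Dapl1 (5.64 against 86.2 CPM) and Foxp3 (2.35 against 56.0 CPM). Id3, a member of the same list, was called lower than in single-cell clonotypes (26.8 against 61.5 CPM) and yet was the highest of the 23 expanded clonotypes, whose others reached 19.3 CPM. Its UMIs lay in 13 cells, and 5 of these held 78.9% of them. Against clonotypes of 2 to 19 cells, Igfbp4 (log2 ratio -0.34) and Il7r (-0.97) no longer reached the threshold, whereas the rest of the 12 lowest did.

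**Figure D4:**
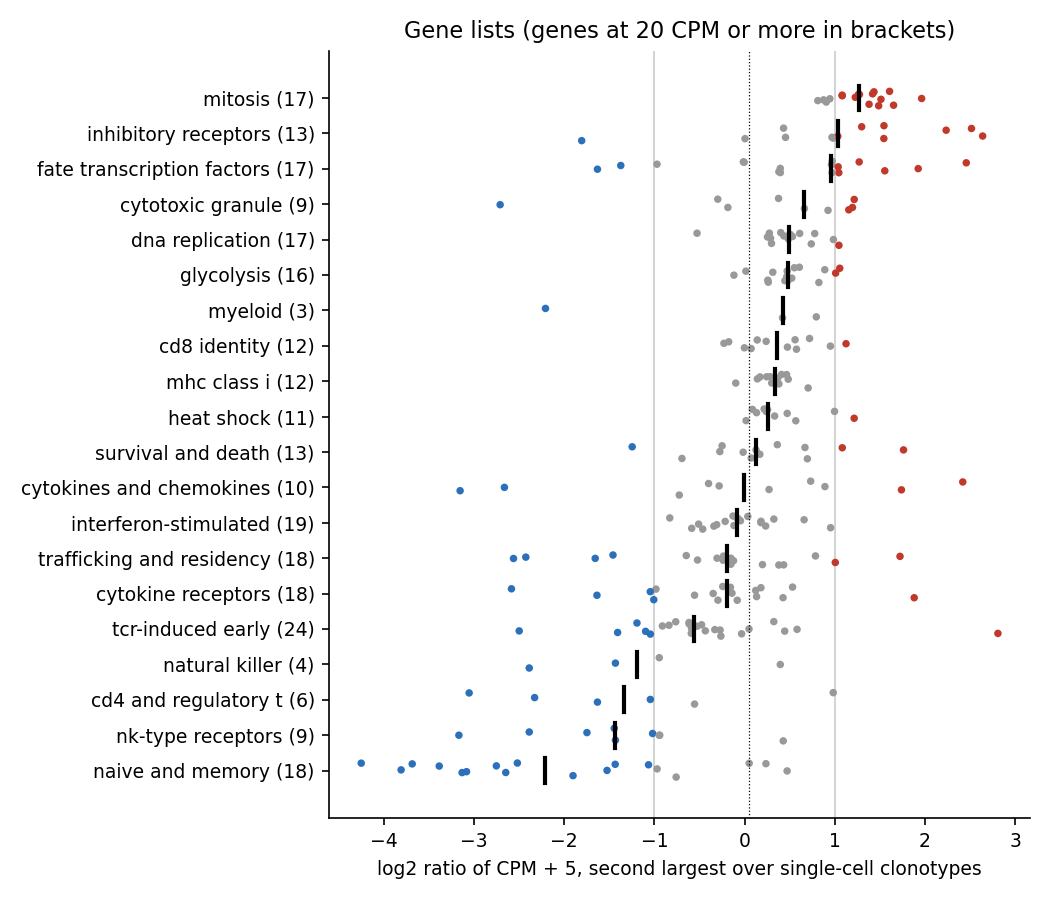
Log2 ratio of CPM plus 5, second largest clonotype over single-cell clonotypes (x axis), for each gene at 20 CPM or more of 20 lists with at least 3 such genes (y axis, number of genes in brackets). Red and blue points were called higher and lower, black bars are list medians, grey lines mark the threshold of 1 and the dotted line the median of all 6169 genes (0.05), and the lists run from mitosis (median 1.27) to naive and memory genes (-2.21).

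The cytotoxic program was selective. Of 9 measured granule genes 3 were higher (Gzmb, Nkg7 and Gzmk) and 1, Gzma, was lower. Gzmb, a serine protease that triggers apoptosis in target cells, was at 773 CPM (736 to 811) against 330 in single-cell clonotypes and 985 in the largest. Gzmk was at 461 against 204 and 701 CPM, and Nkg7, a granule membrane protein, at 4516 against 1967 and 3517 CPM. Gzma was at 13.6 CPM (9.12 to 19.6) against 117 in single-cell clonotypes and 667 in the largest, a log2 ratio of -2.71 and -5.17. Its 29 UMIs lay in 10 members, 16 of them in 1 cell. The clonotype thus held granzyme B and K RNA at levels between those of single-cell clonotypes and the largest clonotype, and little granzyme A. Little Gzma was not particular to it, since the third clonotype held 1.96 CPM. For Gzma it ranked 16 of the 23 clonotypes with at least 20 cells, the others running from 0 to 1955 CPM with a median of 119. Perforin (Prf1) was at 128 CPM, against 78.8 in single-cell clonotypes and 691 in the third clonotype. The direction for Gzmb and Gzmk turned with the reference, to log2 ratios of -0.13 and -0.30 against clonotypes of 2 to 19 cells.

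The inflammatory chemokines Ccl3 and Ccl4 were high. Ccl3 was at 817 CPM (779 to 857) against 149 in single-cell clonotypes, 78.9 in the largest and 1420 in the third, with a log2 ratio of 2.42. Ccl4 was at 1895 against 564 CPM (log2 ratio 1.74). Both were called against single-cell clonotypes, while Ifng, at 220 against 130 CPM, and Ccl5, at 9055 against 4879 CPM, stayed below the threshold. Il2 and Tnfsf8 were called lower. Against clonotypes of 2 to 19 cells the log2 ratio of Ccl3 was 0.73, below the threshold. Siglech-positive cells without T cell RNA or contig, taken elsewhere as a measure of background, held Ccl4 in 56.7% of 30 cells at 2000 UMIs and Ccl3 in 16.7%. The shares were 59.6% and 37.1% in the clonotype and 21.7% and 7.45% in single-cell clonotypes, so that these cells give no background for either gene. Xcl1, the ligand of a receptor on cross-presenting dendritic cells, was at 176 CPM against 294 in single-cell clonotypes and 8.01 in the largest, and 57.9% of its UMIs came from 5 of 49 cells.

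Of 18 measured homing and residency genes 2 were higher than in single-cell clonotypes (among them Cxcr6) and 4 lower (Itgae, Ccr8, Itgb7 and Cxcr4). Against the largest clonotype, where the genes that reached 20 CPM were not all the same, 0 of 19 were higher and 9 lower. Across all genes the latter comparison called 207 of 6233 higher (3.32%) and 160 lower (2.57%). Cxcr6, a chemokine receptor of tissue T cells, was at 959 CPM (918 to 1002), against 287 in single-cell clonotypes, and ranked 1 of the 23 clonotypes, the others running from 417 to 940 CPM with a median of 697, the highest of them inside its interval. Ccr2 was at 93.5 CPM against 451 in the largest clonotype, and Itga1 at 18.3 against 84.3 CPM. Inhibitory receptors ran the other way in this comparison, with 10 of 12 higher than in the largest clonotype, 0 lower and a median log2 ratio of 1.53. The 2 largest clonotypes of the library therefore had unlike profiles, the second with more inhibitory receptor RNA and the largest with more Gzma, Ccr2 and Klf3.

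NK-type receptors were low, with 6 of 9 measured genes lower than in single-cell clonotypes, 0 higher and a median of -1.43. Klrd1, which encodes CD94, was at 124 CPM (110 to 140) against 346, and Klrk1, which encodes NKG2D, at 47.9 CPM against 173. Both ranked 21 of the 23 clonotypes. Klrc1, which encodes NKG2A, the partner of CD94, was at 198 CPM against 146 in single-cell clonotypes and 699 in the largest. Members thus held less Klrd1 and Klrk1 RNA than nearly all expanded clonotypes.

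Genes induced early after receptor signalling were mostly level or low, with 1 of 24 higher, 5 lower (Rgcc, Fos, Cd69, Nr4a1 and Tnfrsf4) and a median of -0.56. The exception, Rgs16, a regulator of G protein signalling, was at 515 CPM (485 to 547) against 69.2 in single-cell clonotypes, 14.4 in the largest and 929 in the third, a log2 ratio of 2.81. Its spread over the other 22 clonotypes ran from 0 to 929 CPM with a median of 232, so that the clonotype ranked 8. Rgs16 was not called against all other CD8 cells or against clonotypes of 2 to 19 cells (log2 ratio 0.52 in the latter). Cd69, an early activation antigen, was at 249 against 576 CPM.

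Mitotic genes were higher, with 13 of 17 called, 0 lower and a median of 1.27. Ube2c, a ubiquitin carrier of the anaphase-promoting complex, was at 141 against 32.4 CPM, and Mki67, the Ki-67 antigen, at 106 against 40.8 CPM (log2 ratio 1.27). Mki67 was not called with cells weighted equally (0.80) or thinned to 2000 UMIs (0.59), whereas the median of the list stayed at 1.25 and 1.60. Of 17 genes of DNA replication 1, Dut, was called, with a median of 0.50. After thinning, 16.6% (12.5 to 21.2) of members held at least 1 UMI of Mki67, Top2a, Ccnb1 or Cdk1, the gate used for dividing cells, against 7.58% of single-cell clonotypes, 12.3% of the largest and 31.6% of the third. Against clonotypes of 2 to 19 cells the mitotic median was -0.45, so that the direction turned with the reference. Dividing members (101 cells, median depth 7888 UMIs) held 794 CPM of Pdcd1, 359 of Lag3 and 129 of Havcr2, and the other 217 members (median 4757 UMIs) held 1034, 560 and 86.1 CPM. Pdcd1 and Lag3 were thus lower and Havcr2 higher in the dividing members, while Tox (329 and 359 CPM) and Tcf7 (27.0 and 31.1 CPM) had overlapping intervals. In single-cell clonotypes Pdcd1 and Lag3 ran the other way, at 280 and 131 CPM in dividing cells and 158 and 47.7 CPM in the others. In the largest clonotype Pdcd1 was lower in dividing cells (339 and 400 CPM), whereas Lag3 had overlapping intervals (41.4 and 42.5 CPM).

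Interferon-stimulated genes gave 0 calls of 19 and MHC class I genes 0 of 12, where 2.33% of all genes were called higher and 2.67% lower. Counts of 0 or 1 in lists this short cannot be told apart from those shares. Of 11 heat shock genes 1 was higher, Hspa1a, at 294 against 124 CPM and the highest of the 23 clonotypes. Of 16 glycolytic genes 2, Tpi1 and Pgk1, were higher. Of 13 genes of survival and death 2 were called higher, among them Bcl2a1d, a BCL-2 family member (75.2 against 32.8 CPM), and 1, the pro-apoptotic Bbc3, was lower. Of 18 cytokine receptors Il10ra was higher (316 against 82.2 CPM) and Il6ra, Il4ra, Il6st and Il12rb2 were lower.

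Further genes among the 12 highest ratios were Adgrg1, Osgin1, Cd80, H2-DMb2 and Fabp5. Adgrg1, an adhesion G protein-coupled receptor of cytotoxic lymphocytes, was at 74.7 CPM (63.5 to 87.2) against 5.02 in single-cell clonotypes and 3.40 in the largest, with a UMI in 107 members. Osgin1, an oxidative stress response gene, was at 34.8 against 2.93 CPM, and Cd80, a B7 ligand of CD28 and CTLA-4, at 31.0 against 2.72 CPM. Adgrg1, Osgin1 and Cd80 kept a log2 ratio above 1 against clonotypes of 2 to 19 cells (1.20, 1.37 and 1.04). The ratios of H2-DMb2 and Fabp5 rested on few cells, as shown further on.

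Shares of cells were compared after each cell was thinned to 2000 UMIs, which left 302 members, 805 single-cell clonotypes and 987 cells of the largest clonotype. Pdcd1 was found in 78.8% (73.8 to 83.3) of members, 19.3% of single-cell clonotypes and 42.2% of the largest, and in 0 of 30 Siglech-positive cells, whose median depth was 7424 UMIs (without thinning 92.8%, 29.3% and 61.6%). Tox was found in 48.0%, 12.5% and 10.8%, and in 3.33% of the Siglech-positive cells (without thinning 81.4%, 26.6% and 27.1%). Havcr2 was found in 15.2%, 1.61% and 1.93%, and in 0 of 30 (without thinning 35.8%, 4.67% and 3.77%), so that the order of single-cell clonotypes and the largest clonotype, which lie close together, is not read from it. Tcf7 was found in 4.30%, 45.6% and 16.9%, and in 0 of 30 (without thinning 9.75%, 69.4% and 33.0%). Lag3 was found in 62.6%, 9.32% and 7.60%, but also in 53.3% of the Siglech-positive cells, and Siglech marks plasmacytoid dendritic cells, which are known to express Lag3 (without thinning 86.5%, 16.9% and 15.96%).

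Few genes were highest or lowest in the clonotype among its expanded neighbours, but such counts depend on depth. The clonotype held 2128803 UMIs in sum, and the other 22 clonotypes of at least 20 cells held 99664 to 4996616. Values of the shallower ones carry more counting error, which widens the range. Of 6169 genes 26 (0.421%) were highest in the second largest clonotype among the 23 clonotypes with at least 20 cells and 3 (0.0486%) lowest. For 16 of the 26 the lower limit of its interval lay above the value of every other clonotype. The counting error of those other clonotypes was left out of this comparison, so the 16 are not shown to clear it. The 3 lowest were the sorting nexins Snx3, Snx6 and Snx18, proteins of endosomal trafficking. Snx6 was at 29.6 CPM (22.7 to 37.9) against 45.04 to 131 CPM in the others, whereas Snx3 (216 CPM against 218 or more) and Snx18 (27.7 CPM against 29.996 or more) lay within counting error of the next clonotype. Of these 16, 11 lay below the highest other clonotype once 5 members with MHC class II RNA, described next, were left out of the clonotype, and 5 stayed above it (5830405F06Rik, Cd3g, Hspa1a, Fut8 and Id3), in 169, 317, 95, 91 and 13 cells. Cxcr6 and Il3ra (64.4 CPM, 54.03 to 76.1, others up to 54.8 CPM) ranked first within counting error. Over the 54 clonotypes of at least 10 cells, 5 genes were highest in it and 0 lowest.

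A group of 5 members carried antigen-presenting cell RNA. Summed UMIs of the MHC class II genes H2-Aa, H2-Ab1 and H2-Eb1 were 506, 498, 441, 396 and 192 in these cells, and 12 in the next highest. The 5 cells were 1.57% (0.512 to 3.63) of members, against 7 of 836 single-cell clonotypes (0.837%) and 5 of 1034 cells of the largest clonotype (0.484%). Each held 1 alpha and 1 beta contig of the clonotype, 11 to 32 Cd3e UMIs and 3 to 31 Cd8a UMIs, at depths of 9915 to 33170 UMIs. They held 2567 of the 2804 UMIs of Cd74, the invariant chain (91.5%), 98.2% of H2-Aa and 98.6% of H2-Eb1. Without them Cd74 dropped from 1317 to 117 CPM in the clonotype, and in single-cell clonotypes from 375 to 80.9 CPM. Whether they are doublets or T cells with captured RNA was not tested.

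Leaving such cells out of both groups, a step chosen after seeing the data, gave 144 higher genes, and 19 of the main calls were no longer among them. These included H2-DMb2 (log2 ratio 2.52, then 0.26), Fabp5 (2.35, then 0.87, with 217 of 358 UMIs in 1 cell), Cd74, Spi1, Fscn1, Tmem176a, Tmem176b, Il4i1 and Ccnd1. The number of genes highest in the clonotype went from 26 to 14. Pdcd1, Lag3, Havcr2, Tox and Ccl3 kept log2 ratios of 2.28, 2.67, 2.52, 1.95 and 2.37.

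**Figure D5:**
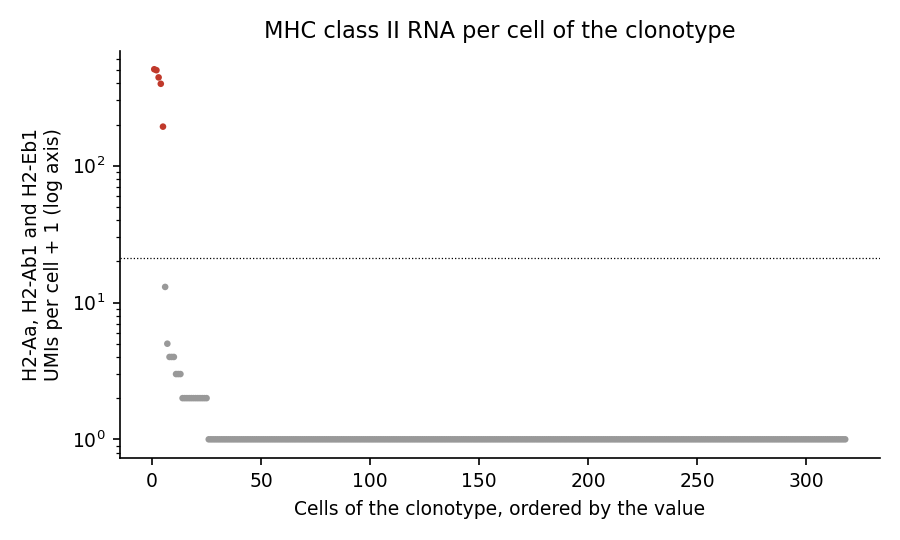
Summed UMIs of H2-Aa, H2-Ab1 and H2-Eb1 plus 1 (y axis, log scale) in each of the 318 cells of the clonotype, ordered by the value (x axis). The 5 cells above the dotted line at 20 UMIs (red) hold 192 to 506 UMIs, and the next cell holds 12.

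The variance of thinned counts divided by their mean, which is near 1 for counting error alone, had a median of 1.03 over 4968 genes both in the clonotype and in single-cell clonotypes, so that the median does not tell alike cells from mixed ones. The 10 highest values were those of Cd74 (49.0), the repeat-rich transcript Gm42418 (25.7), Ccl5 (18.1), H2-Eb1 (16.3), H2-Aa (16.2), Ccl4 (16.1), Cst3 (15.2), H2-Ab1 (11.8), Ccl1 (10.4) and Ccl3 (8.89). Of these Cd74, H2-Eb1, H2-Aa, H2-Ab1 and Cst3 came down to at most 2.50 without the 5 cells, while Gm42418, Ccl5, Ccl4, Ccl1 and Ccl3 became the first 5. Single-cell clonotypes had higher values for these chemokines (Ccl4 77.3, Ccl1 37.0, Ccl5 25.7 and Ccl3 21.7), so that spread of this kind was not particular to the clonotype. Ccl1 lay in 8 cells, with 149 of its 201 UMIs in 1 of them, and all 8 also held Xcl1. Ccl4 was spread more widely, over 231 cells with a median of 3 UMIs and a highest count of 223.

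A Tcf7 UMI was found in few members. The 31 cells with one (median depth 7473 UMIs, against 5077 in the other 287) held Pdcd1 in 25 (80.6%, against 94.1% of the others) and Havcr2 in 4 (12.9%, against 38.3%). The Havcr2 share was lower in these cells although they were deeper. Hspa1a and Hspa1b, heat shock proteins of the HSP70 family, went together in 72 of the 95 cells with Hspa1a. Thinned to 2000 UMIs, members held a median of 6 UMIs of the inhibitory receptor list (quartiles 4 and 8) and 1 of 302 held none, against a median of 1 and 256 of 805 cells with none in single-cell clonotypes.

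No Y-linked UMI was found in the clonotype, and Xist, the RNA of the inactive X chromosome, was at 272 CPM in 214 members, against 267 CPM in single-cell clonotypes. The whole WT library held 3 UMIs of Y-linked genes, so that these RNAs do not separate mice within it.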

How the data were processed

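Per the file headers and labels, the authors made the files with Cell Ranger 5.0.0 and a GRCm38 reference. The deposited gene table holds unnormalized counts of UMIs for every barcode, and the deposited receptor table lists productive contigs with their counts of UMIs. The labels describe a 3′ kit and the methods a 5′ kit. Seurat 4, named in the submitters' notes, was not used here.

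Cells were kept with at least 600 genes and under 30% mitochondrial UMIs. UMIs of a group were added up and expressed as CPM. The ratio is log2 of CPM plus 5 in both groups, and this understates changes of genes with few counts. Receptor segment genes were left out of calls. Named genes were the 12 highest and 12 lowest ratios that kept their direction with cells weighted equally and against clonotypes of 2 to 19 cells, measured genes of the lists, the 10 most variable genes, Vsir and sex-linked genes. Trbv4, Trbv5, Trbv29, Trav13-1, receptor constant genes and the genes described as highest or lowest of the clonotypes or as tied to MHC class II RNA were named after their values were seen. Members, lists and comparisons were chosen with earlier results of these data known. A plasmacytoid dendritic list had a summed 326 CPM in the clonotype against 364 in single-cell clonotypes, mostly Bst2, and a natural killer list 171 against 308 CPM. Lists share genes. Poisson and Clopper-Pearson intervals are exact at 95%. The software was Python 3.11.15 (matplotlib 3.10.9, pandas 2.3.3, scipy 1.17.1 and numpy 2.4.6), and the steps were tested on simulated data. Some named genes are not reported here. In all 17 alternatives were tried, 15 of them planned. Doublets were kept, and 20 members and 113 single-cell clonotypes with several beta contigs or at least 2 UMIs per 1000 from B cell, myeloid, plasmacytoid dendritic or melanoma genes were left out in 1 alternative. Background cells had a Siglech UMI and no T cell RNA or contig.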

Additional observations from a re-analysis of the deposited data

How the results depend on the processing

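The size stayed at 318 cells without a filter on cells and was 313 where both Cd8 genes were required. Against 144 genes higher and 165 lower, counts moved past 1.5 times without a filter on low values (278 lower), at 50 CPM (85 higher, 88 lower), with totals without receptor, ribosomal protein and mitochondrial genes (248 lower), against all other CD8 cells (44 higher, 60 lower), against clonotypes of 2 to 19 cells (36 and 37) and against a reference without cells holding naive T cell RNA (70 higher, 324 cells). Lists with a median of at least 0.5 numbered 4, then 1 against all other CD8 cells, 0 against clonotypes of 2 to 19 cells and 7 without Foxp3 cells, the last an alternative added after seeing the data. Lists with a median of at most -0.5 numbered 5, then 3, 1 and 3. Genes highest in the clonotype numbered 26, then 5 over clonotypes of at least 10 cells and 14 without cells with MHC class II RNA, and those lowest 3, then 0 over clonotypes of at least 10 cells. Shares at 4000 UMIs were 91.5% for Pdcd1, 80.1% for Lag3 and 71.6% for Tox. Directions that reversed were the cytotoxic median (-0.0683 against all other CD8 cells, -0.0809 against clonotypes of 2 to 19 cells, -0.0487 without cells holding naive T cell RNA), Gzmb (-0.0525 and -0.13 in the first 2 of these), Gzmk (-0.0683 and -0.30), the mitosis median (-0.45) and Mki67 (-0.33) against clonotypes of 2 to 19 cells, and the CD4 and regulatory T cell median (0.63 without Foxp3 cells). Lower counts at 50 CPM follow from fewer genes tested, and other causes were not tested. Of the 24 named genes 13 stayed past the threshold in every alternative that gave a value. No paired analysis was possible because each genotype has 1 library, which also left no replicate to leave out. The alternative without sex-linked RNA was not run because neither group held a Y-linked UMI.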

Other observations

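The stretch ACTGGGGG together with TRBJ2-4, as in the beta junction of the clonotype, was counted in WT clonotypes by size. It was present in 4 of 23 CD8 clonotypes with at least 20 cells (17.4%, exact interval 4.95 to 38.8), in 11 of 231 clonotypes of 2 to 19 cells (4.76%) and in 14 of 836 single-cell clonotypes (1.67%). The 4 were the second largest, the fourth and the eighth, both called TRBV16, and the seventh, called TRBV10 like the second. In VISTA-KO it was present in 1 of 12, in 18 of 342 (5.26%) and in 26 of 1260 (2.06%). The stretch alone, with any J call, was present in 6 of 23 (26.1%), 32 of 231 (13.9%) and 111 of 836 (13.3%) WT clonotypes and in 3 of 12, 54 of 342 (15.8%) and 193 of 1260 (15.3%) VISTA-KO clonotypes, so that it was common in clonotypes seen in 1 cell. The stretch can come from the germline segment TRBD2, the combination was chosen after the junctions were seen, and the shares were not tested.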
